A study of Saccharomyces cerevisiae with 4 samples.

Results

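The genes described here are 10 budding yeast genes that drive or restrain entry into and passage through mitosis: the mitotic cyclin genes CLB1, CLB2, CLB3 and CLB4, the polo kinase gene CDC5, the anaphase activator gene CDC20, the transcription factor genes FKH1, FKH2 and NDD1, and the kinase gene SWE1. They were taken by name, and all 10 were found among the 6459 rows of the count table. They are of interest because cells that lose the prolyl isomerase Ess1 are known to stop in mitosis. RNA was sequenced from 2 cultures given IAA, a natural auxin (indole-3-acetic acid), at 2 mM for 3 h and from 2 cultures given the solvent DMSO for 3 h. Both groups were mid-log cultures of a single strain, ESS1-AID in the BY4741 background, in which Ess1 carries an auxin-inducible degron with a Flag tag (marker hphB) and the plant receptor OsTIR1, Myc-tagged and expressed from the ADH1 promoter, sits at HIS3. The DMSO cultures therefore carry the degron and the receptor too, and with no strain lacking the degron among the libraries, loss of Ess1 and other actions of IAA cannot be told apart.

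Mitotic cyclins bind the kinase Cdc28 and switch it to its mitotic form. In budding yeast the genes CLB1, CLB2, CDC5 and CDC20 belong to the CLB2 cluster, a set transcribed late in the cycle under a complex of the MADS-box factor Mcm1, a forkhead factor (mainly Fkh2, with Fkh1 in part overlapping in function) and the co-activator Ndd1. Cyclin kinase and Cdc5 act back on this complex and raise its activity. Swe1 phosphorylates Cdc28 and holds mitotic cyclin kinase inactive, and Cdc20 directs the anaphase-promoting complex to securin and to cyclins.

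Letters that the complex is known to read were looked for in the 1000 bases before each annotated start, on both strands. They were GTAAACA, with no other spelling, for a forkhead factor and, for Mcm1, CC and GG with any 6 bases between them. The stretches below are shown because they hold both, at most 20 bases apart, in 2 genes that were called lower in IAA, CLB1 and SWI5, and in CLB2, which was not called. They were read from the RefSeq R64 genome and run 5′ to 3′ on the strand of the gene, with the matches in capitals (the forkhead letters read TGTTTAC where they lie on the other strand).
CLB1, chrVII:702993-703044, forward strand: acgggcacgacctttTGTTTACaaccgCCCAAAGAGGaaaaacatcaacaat
CLB2, chrXVI:770874-770928, forward strand: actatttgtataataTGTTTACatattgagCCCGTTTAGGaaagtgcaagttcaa
SWI5, chrIV:751022-751074, reverse strand: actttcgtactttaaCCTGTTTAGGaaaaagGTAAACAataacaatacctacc
In CLB1 the forkhead letters lie 5 bases before the Mcm1 letters, and in CLB2 8 bases before them. SWI5, a CLB2 cluster gene outside the 10, encodes a transcription factor of late mitosis. In its stretch the order of these exact letters is turned round and the gap is 6 bases. The CLB2 window holds a further match to the Mcm1 letters on the other side of the same forkhead letters. A close pair was present before 2 of the 10 genes and 9 of 25 other CLB2 cluster genes, against 1.82% of 5989 coding genes with a full window. Forkhead letters alone were present before 7 of the 10 genes, against 17.8% of coding genes, and the Mcm1 letters, which are loosely defined, before 7 of 10, against 77.1%. CDC5, CDC20 and CLB3 had no GTAAACA in this window. Only that exact run of letters was searched for, so a forkhead site spelled otherwise would have been missed. A match is only a run of letters, and genes with a close pair were called in both directions. Of 102 tested genes that had one, 28 (27.45%) were called higher and 26 (25.49%) lower in IAA. Over all 5712 tested genes with a window, 28.38% were called higher and 29.74% lower. The median log2 fold change was 0.00014 with a close pair, against -0.0053 over all 5712.

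The IAA libraries summed to 33589128 and 33625232 estimated counts and the DMSO libraries to 26046702 and 27609311. Each of the 10 genes had between 636 and 4016 counts per library, all of them whole numbers to the 2 decimals given, so no sharing of reads with other genes showed, and none overlapped another annotated gene. Together they took 0.0700% and 0.0675% of the counts in IAA and 0.0822% and 0.0835% in DMSO. ESS1 mRNA was at 6.70 and 7.92 CPM (counts scaled by library total, with TMM factors) in IAA, against 5.15 and 5.31 CPM in DMSO (edgeR quasi-likelihood test, adjusted p = 0.0109). The degron acts on the protein, so this transcript does not report its depletion. LEU2, URA3 and MET17, which BY4741 lacks, had no read in any library, and the a-cell receptor gene STE2 was at 361.5 to 394.7 CPM in all 4. The a-factor genes, which cells of that mating type also use, were close to 0: MFA1 had 0 to 7 counts and MFA2 3 to 26 counts in a library. Of the genes of the opposite type, STE3 was at 4.68 to 6.12 CPM and MF(ALPHA)1 had 1 to 6 counts.

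By edgeR's quasi-likelihood test, fitted over 5799 genes with Benjamini-Hochberg adjustment and a threshold of 0.05, 5 of the 10 genes were lower in IAA (NDD1, FKH1, FKH2, CLB1 and SWE1), 1 was higher (CDC20) and 4 were not called (CLB2, CLB3, CLB4 and CDC5). Over all tested genes 29.6% were called lower and 28.7% higher, 58.3% in all, so 6 calls among 10 genes is close to the background in number. They were less evenly split than that, 5 lower and 1 higher, which was not tested. The median log2 fold change of the 10 was -0.13, against -0.0036 over all tested genes. The libraries did not overlap for 8 of them: IAA lay below DMSO for 6 and above it for 2, and over all tested genes these were 41.3% and 40.2%. All the changes were small, within a log2 fold change of -0.44 to 0.31. In these bulk RNA samples, fewer cells in a cycle stage and less RNA per cell cannot be told apart.

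**Figure D1:**
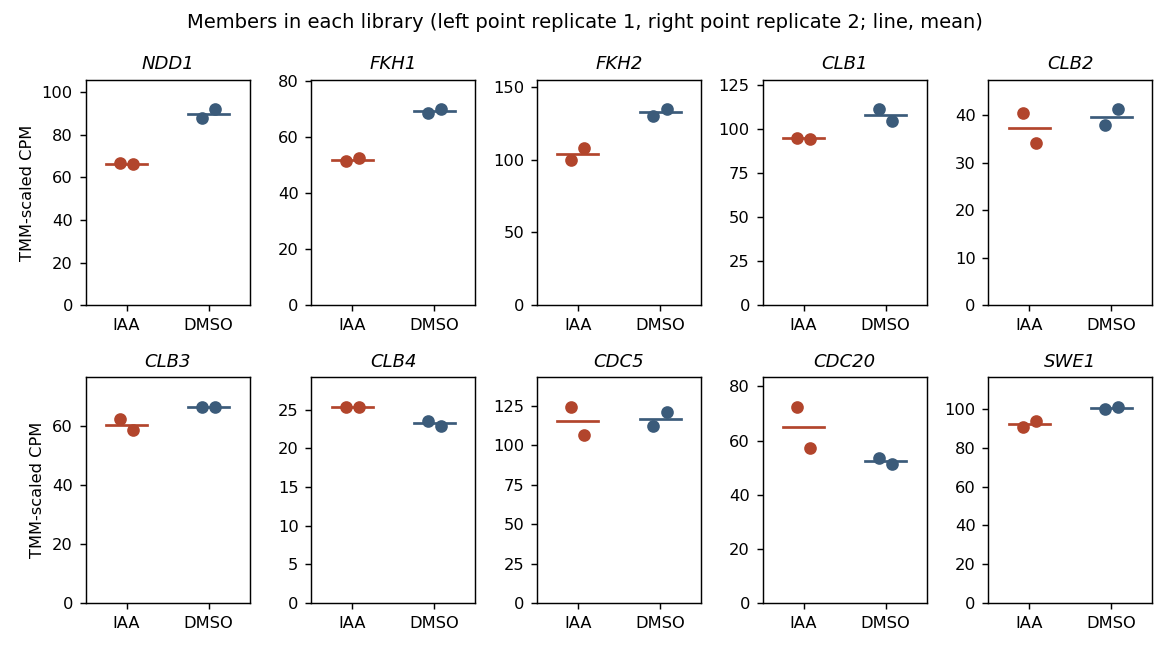
TMM-scaled CPM of each of the 10 genes in each library (points) with the mean of the 2 libraries of a group (line), on axes that start at 0. NDD1, FKH1 and FKH2 lie lower in both IAA libraries, CLB2 and CDC5 overlap between groups, and the IAA libraries stand apart from each other for CDC20 (72.5 and 57.3 CPM).

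The 3 transcription factor genes fell. NDD1, the co-activator that joins the complex at mitotic promoters (YOR372C, chromosome XV, 1034807 to 1036471, reverse strand, R64), had 66.7 and 66.1 CPM in IAA, against 87.7 and 91.9 CPM in DMSO. Both IAA libraries were lower than either DMSO library, by 1.35-fold on average (log2 fold change -0.44, SE 0.048, edgeR adjusted p = 1.61e-04).
FKH1, a forkhead factor also known for its roles at replication origins and in mating-type switching (YIL131C, chromosome IX, 100781 to 102235, reverse strand), had 51.5 and 52.5 CPM in IAA, against 68.6 and 70.0 CPM in DMSO. The groups were well apart, with a 1.33-fold fall (log2 fold change -0.41, SE 0.050, edgeR adjusted p = 2.42e-04). FKH2, the forkhead partner of Mcm1 and Ndd1 (YNL068C, chromosome XIV, 495701 to 498289, reverse strand), had 99.98 and 108 CPM in IAA, against 130 and 135 CPM in DMSO. It fell 1.27-fold (log2 fold change -0.35, SE 0.052, edgeR adjusted p = 7.02e-04), again without overlap.

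MCM1, the gene of the MADS-box factor of the complex, is not one of the 10 genes but moved the same way. It had 87.2 and 94.2 CPM in IAA, against 132 and 148 CPM in DMSO, a 1.54-fold fall (log2 fold change -0.63, SE 0.065, edgeR adjusted p = 1.25e-04). NDD1, FKH1, FKH2 and MCM1 were called lower under each of 16 alternative scalings, filters, tests and sets of libraries. The smallest falls among those were -0.36, -0.34, -0.27 and -0.54 on the log2 scale in that order. FKH2 and FKH1 kept close to equal levels per length, as FPKM (fragments per kb, scaled by library total). FKH2 over FKH1 within a library was 1.01 and 1.07 in IAA and 0.991 and 1.002 in DMSO, as a ratio of FPKM. For the 10 genes the length behind the FPKM was shorter than the annotated gene.

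**Figure D2:**
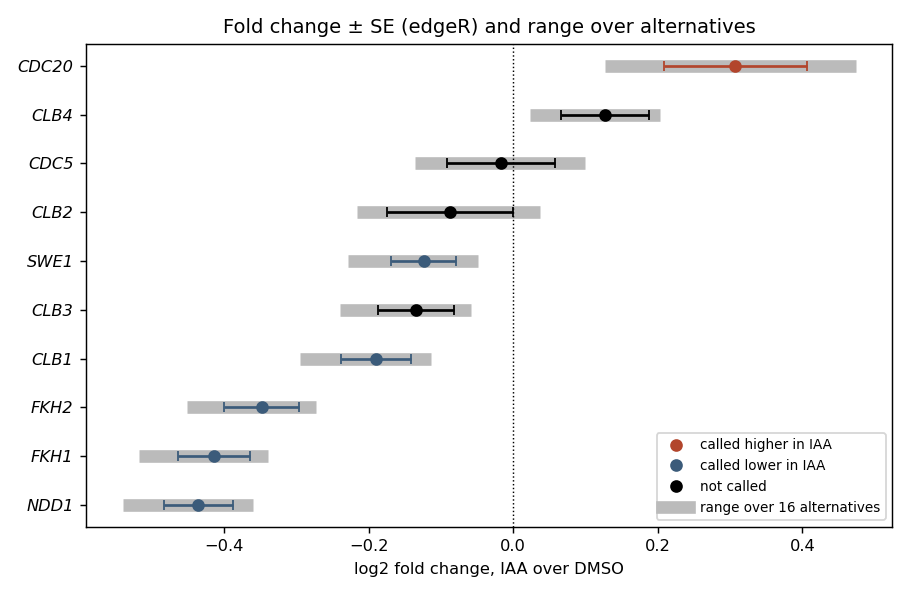
Log2 fold change, IAA over DMSO, of each gene (point) with its standard error (bar) from edgeR, and the lowest to highest value over 16 alternatives (grey band). The bands of NDD1, FKH1 and FKH2 stay below 0, those of CLB2 and CDC5 cross 0, and that of CDC20 runs from 0.13 to 0.47.

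Of the 4 mitotic cyclin genes, CLB1 fell slightly and the others were not called. CLB1 (YGR108W, chromosome VII, 703636 to 705051, forward strand) had 94.9 and 94.4 CPM in IAA, against 111 and 104.7 CPM in DMSO. The groups did not overlap, and the fall was 1.14-fold (log2 fold change -0.19, SE 0.048, edgeR adjusted p = 0.00929). The call was lost with upper quartile scaling (adjusted p = 0.0751) and when DMSO replicate 1 was left out (adjusted p = 0.113).
CLB2, the cyclin with the largest part in driving mitosis (YPR119W, chromosome XVI, 771653 to 773128, forward strand), had 40.4 and 34.1 CPM in IAA, against 37.9 and 41.3 CPM in DMSO. One IAA library lay between the DMSO libraries and the other below both, and the log2 fold change was -0.09 (95% interval -0.29 to 0.11, edgeR adjusted p = 0.416). Without IAA replicate 1 it was -0.22 and called (adjusted p = 0.0281), and without IAA replicate 2 it was 0.04 (adjusted p = 0.691).

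CLB3 and CLB4 encode a pair of related cyclins that act earlier, at spindle formation. CLB3 (YDL155W, chromosome IV, 176773 to 178056, forward strand) had 62.5 and 58.7 CPM in IAA, against 66.6 and 66.5 CPM in DMSO. Both IAA libraries were lower, but the difference just missed the threshold (log2 fold change -0.13, SE 0.053, edgeR adjusted p = 0.0540). It passed under 5 of the 16 alternatives, among them library size scaling (log2 fold change -0.24, adjusted p = 0.00416) and the fit without IAA replicate 1 (log2 fold change -0.18, adjusted p = 0.0158). CLB4 (YLR210W, chromosome XII, 562008 to 563390, forward strand) had 25.3 and 25.4 CPM in IAA, against 23.5 and 22.9 CPM in DMSO. Both IAA libraries were higher, without passing the test (log2 fold change 0.13, 95% interval -0.01 to 0.27, edgeR adjusted p = 0.104), and with upper quartile scaling the gene passed (log2 fold change 0.20, adjusted p = 0.0248).

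The make-up of the cyclin messages can be compared within a library, where scaling between libraries plays no part. Summed over CLB1 to CLB4, the level per length was 185 and 179 FPKM in IAA, against 213 and 210 FPKM in DMSO, values that do depend on each library's total. CLB4 made up 11.3% and 11.9% of that sum in IAA, against 9.82% and 9.71% in DMSO, and CLB1 41.3% and 43.1%, against 45.1% and 43.2%. CLB2 made up 16.8% and 14.8% in IAA and 14.7% and 16.2% in DMSO, which overlap. CLB4 over CLB3 was 0.371 and 0.395 in IAA, against 0.323 and 0.315 in DMSO, higher in both IAA libraries. None of 10 such ratios, sums and shares can pass an exact permutation test of 2 against 2 libraries, whose smallest two-sided p is 0.333 (0.556 after Benjamini-Hochberg adjustment over the 10).

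CDC20 rose and CDC5 was not called. CDC5, the polo kinase of mitosis and mitotic exit (YMR001C, chromosome XIII, 269019 to 271136, reverse strand), had 125 and 106 CPM in IAA, against 112 and 121 CPM in DMSO. The IAA libraries enclosed both DMSO libraries (log2 fold change -0.02, 95% interval -0.19 to 0.15, edgeR adjusted p = 0.862). It was -0.14 without IAA replicate 1 (adjusted p = 0.0561) and 0.10 without IAA replicate 2 (adjusted p = 0.143). CDC20 (YGL116W, chromosome VII, 289809 to 291641, forward strand) had 72.5 and 57.3 CPM in IAA, against 53.7 and 51.2 CPM in DMSO. Both IAA libraries were higher, but they differed from each other by more than the lower one differed from DMSO. The rise was 1.24-fold (log2 fold change 0.31, SE 0.099, edgeR adjusted p = 0.0266). Without IAA replicate 1 the log2 fold change was 0.13 and not called (adjusted p = 0.0965), and without IAA replicate 2 it was 0.47 (adjusted p = 5.37e-05). With library size scaling the rise was 0.20 and not called either (adjusted p = 0.103). CDC20 over CDC5 within a library was 0.685 and 0.635 in IAA, against 0.561 and 0.498 in DMSO, a ratio in which the groups did not overlap.

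SWE1 fell by a small amount. The gene (YJL187C, chromosome X, 76803 to 79262, reverse strand) had 90.8 and 94.1 CPM in IAA, against 100.2 and 101 CPM in DMSO. The groups did not overlap, and the fall was 1.09-fold (log2 fold change -0.12, SE 0.045, edgeR adjusted p = 0.0427). The call was lost under 7 of the 16 alternatives, among them DESeq2 (adjusted p = 0.135), upper quartile scaling (log2 fold change -0.05, adjusted p = 0.367) and 3 of the 4 fits without a library, those without DMSO replicate 1, DMSO replicate 2 or IAA replicate 1. SWE1 over CLB2 was 1.26 and 1.54 in IAA and 1.48 and 1.38 in DMSO, with overlap.

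Of 7 genes that act on Swe1 or on its mark on Cdc28, 3 fell and 2 rose. They are called genes controlling Swe1 below. Over all tested genes 58.3% were called (29.6% lower and 28.7% higher), and whether these 7 genes differ from those shares was not tested. The bud-neck kinase genes HSL1, GIN4 and KCC4, of which HSL1 sends Swe1 to its breakdown together with HSL7, fell 1.29-fold, 1.29-fold and 1.22-fold (edgeR adjusted p = 2.29e-04, 2.70e-04 and 0.00212). HSL1 was at 340 ± 9.30 CPM in IAA and 437 ± 9.53 CPM in DMSO (mean ± SD, n = 2 each; edgeR). HSL7 itself rose 1.13-fold (edgeR adjusted p = 0.0119). MIH1, named after its value was seen, the phosphatase that removes the mark Swe1 places on Cdc28, rose 1.12-fold (edgeR adjusted p = 0.0492). With library size scaling, neither rise was called. The median log2 fold change of the 7 genes was -0.09.

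Of 25 other genes of the CLB2 cluster, 11 fell, 3 rose and 11 were not called, with a median log2 fold change of -0.10. Over all tested genes 29.6% fell and 28.7% rose, 58.3% in all, so 14 calls among 25 is close to the background in number. The calls were less evenly split than that, 11 lower and 3 higher, which was not tested. SFG1, a factor of filamentous growth, fell 1.62-fold, to 39.6 ± 4.02 CPM in IAA, against 64.3 ± 1.45 CPM in DMSO (n = 2 each; edgeR adjusted p = 1.29e-04). TEM1, the GTPase of the mitotic exit network, fell 1.38-fold and VAC17, the vacuole adaptor of myosin, 1.33-fold (edgeR adjusted p = 5.18e-04 and 3.23e-04). SWI5, whose promoter stretch is printed above and which was chosen after its value was seen, fell 1.21-fold (edgeR adjusted p = 0.00422). The polyamine transporter gene TPO3 rose 1.27-fold (edgeR adjusted p = 3.78e-04). The other 2 rises, named after their values were seen, were the mitotic exit kinase gene DBF2 (1.31-fold, edgeR adjusted p = 0.00372) and RAX2, of bud site selection (1.13-fold, edgeR adjusted p = 0.0253).

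**Figure D3:**
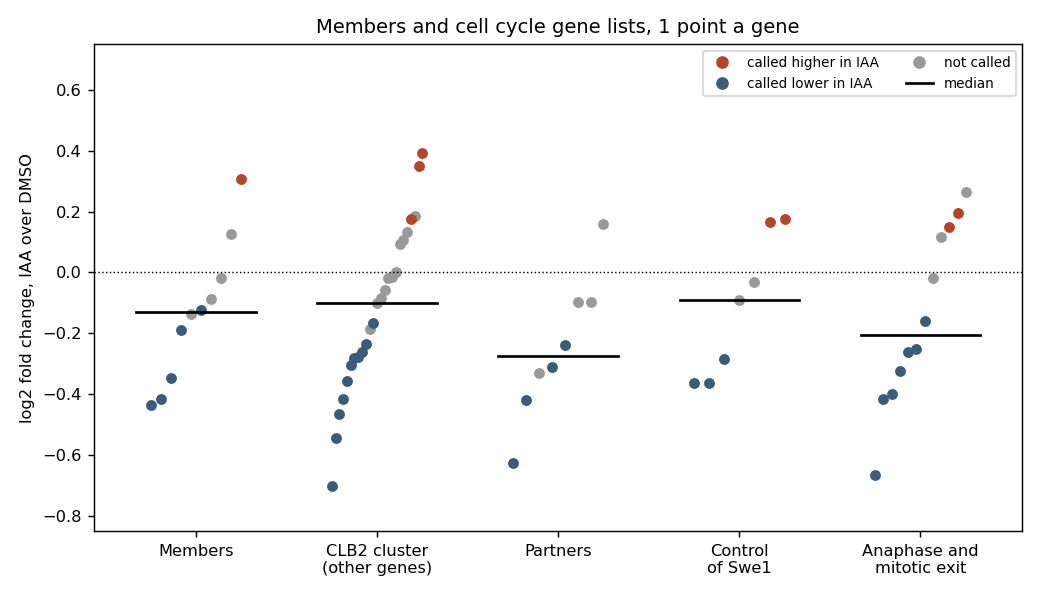
Log2 fold change, IAA over DMSO, of the 10 genes and of 4 gene lists (1 point a gene, coloured by edgeR call, line at the median). The 25 other CLB2 cluster genes spread to both sides of 0 around a median of -0.10, and the 12 genes of anaphase and mitotic exit have a median of -0.21.

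Among 8 partners of the cyclins and factors, 4 fell and 0 rose by edgeR, against 29.6% and 28.7% of all tested genes. The count of rises was also 0 at an unadjusted p under 0.05 and 0 with DESeq2. It was 1 with upper quartile scaling and 1 with a replicate block in the model. MCM1 has been given above. SIC1, the inhibitor of Clb kinase, fell 1.34-fold, the S-phase cyclin gene CLB5 1.24-fold and HCM1, a forkhead factor of S phase, 1.18-fold (edgeR adjusted p = 1.22e-04, 0.00819 and 0.00897). CDC28, the kinase itself, named after its value was seen, was at 49.1 and 50.7 CPM in IAA, against 55.7 and 51.0 CPM in DMSO (edgeR adjusted p = 0.208). Of 12 genes of anaphase and mitotic exit, 7 fell and 2 rose, against the same shares over all tested genes, with a median log2 fold change of -0.21. PDS1, the securin that Cdc20 marks for breakdown, fell 1.59-fold, to 28.7 ± 4.46 CPM in IAA, against 45.5 ± 0.101 CPM in DMSO (n = 2 each; edgeR adjusted p = 5.50e-04). ESP1, the separase, fell 1.32-fold, LTE1, a mitotic exit regulator, 1.33-fold and the phosphatase gene CDC14 1.25-fold (edgeR adjusted p = 2.16e-04, 5.88e-04 and 0.00158). The 2 rises, named after their values were seen, were CDC15, a mitotic exit kinase (1.14-fold, edgeR adjusted p = 0.0152), and CDH1, the activator that follows Cdc20 (1.11-fold, edgeR adjusted p = 0.0297). Neither was called with library size scaling.

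The IAA libraries differed from each other in some of the mitotic genes. CDC20, CLB2 and CDC5 were higher in IAA replicate 1 than in IAA replicate 2, by 0.34, 0.24 and 0.23 on the log2 scale. NDD1, FKH1, CLB1 and CLB4 differed by at most 0.03 between the same libraries. For CLB3, FKH2 and SWE1, replicate 1 over replicate 2 was 0.09, -0.11 and -0.05 on the same scale. In all, 6 of the 10 genes were higher in IAA replicate 1 (median 0.01). So were 7 of 12 genes of anaphase and mitotic exit and 4 of 7 genes controlling Swe1 (median 0.03 in each). Among the partners it was 4 of 8 (0.06). Of the 25 other CLB2 cluster genes, 23 were higher in IAA replicate 1, with a median difference of 0.16, against 48.4% of all tested genes of at least 10 CPM and a median of -0.0047. Between DMSO replicates 1 and 2 the median of this list was -0.05. The log2 fold changes of CLB2, CDC5 and CDC20 moved with the IAA library left out, as given above, while NDD1 was at -0.44 without IAA replicate 1 and -0.42 without IAA replicate 2, and CLB1 at -0.20 and -0.18 in the same 2 fits.

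**Figure D4:**
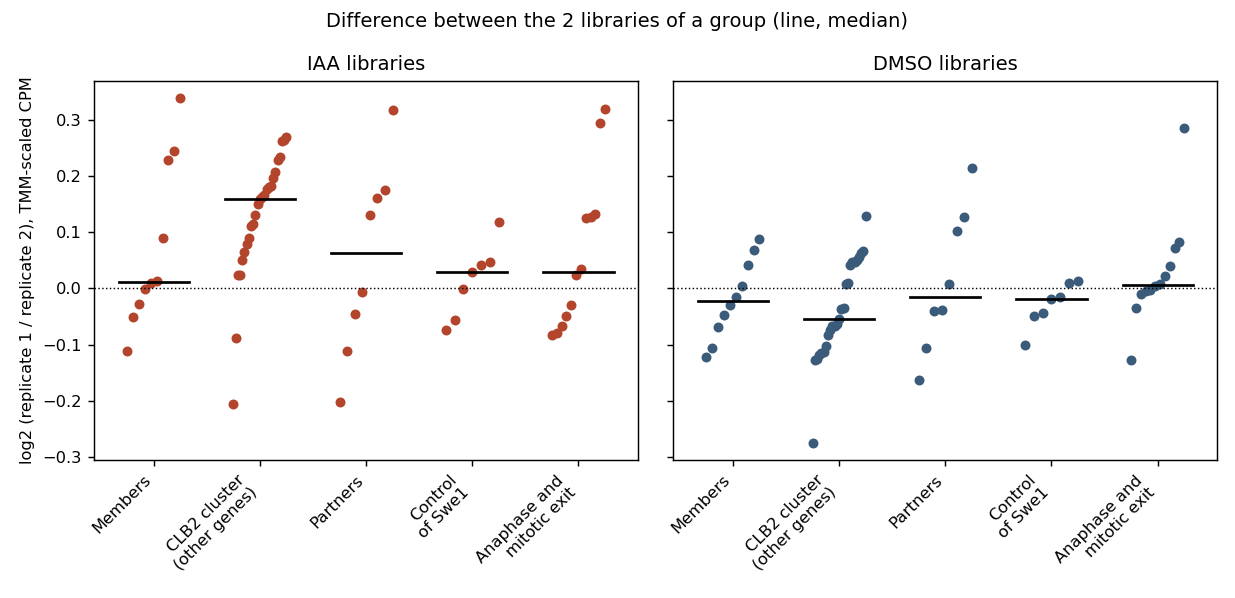
Log2 difference in TMM-scaled CPM between the 2 libraries of a group, replicate 1 over replicate 2, for the 10 genes and the 4 lists (1 point a gene, line at the median), with IAA on the left and DMSO on the right. In IAA the other CLB2 cluster genes lie mostly above 0 (median 0.16), and in DMSO their median is -0.05.

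The profile of CLB2 over the 4 libraries was compared with those of 5076 genes of at least 10 CPM, as the Euclidean distance between log2 values centred on each gene's mean. Among the 5 nearest were APS2 (distance 0.0327), MMR1 (0.0684), MLO50 (0.0734) and ZEO1 (0.0785), and 14 genes were nearer than 0.1. MMR1 is on the CLB2 cluster list. With 4 libraries this likeness is a description only.

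Compared per length, the order of the genes changed in the middle. CLB1 was the highest in both groups, at 76.9 ± 0.417 FPKM in IAA and 93.5 ± 3.85 FPKM in DMSO (n = 2 each), above the median tested gene (57.5 in IAA and 61.1 in DMSO). CLB4 was the lowest, at 21.2 ± 0.219 FPKM in IAA and 20.7 ± 0.382 FPKM in DMSO, with CLB2 next above it at 28.8 ± 3.18 FPKM in IAA and 32.6 ± 2.01 FPKM in DMSO. In DMSO the genes CLB3 (64.7 ± 0.00707 FPKM), NDD1 (64.4 ± 2.25 FPKM) and CDC5 (63.7 ± 3.35 FPKM) did not differ beyond their spread, nor did FKH1 (58.1 ± 0.912 FPKM) and FKH2 (57.9 ± 1.39 FPKM). In IAA NDD1 was at 44.6 ± 0.149 FPKM, below CDC5 at 58.9 ± 6.06 FPKM and CLB3 at 55.4 ± 1.87 FPKM. FKH2, FKH1, SWE1 and CDC20 lay close together in IAA, at 42.5 ± 2.67, 40.9 ± 0.976, 40.0 ± 1.34 and 39.0 ± 6.09 FPKM (n = 2 each). In DMSO SWE1 was at 46.6 ± 0.375 FPKM and CDC20 at 33.7 ± 1.08 FPKM, apart from the forkhead genes.

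**Figure D5:**
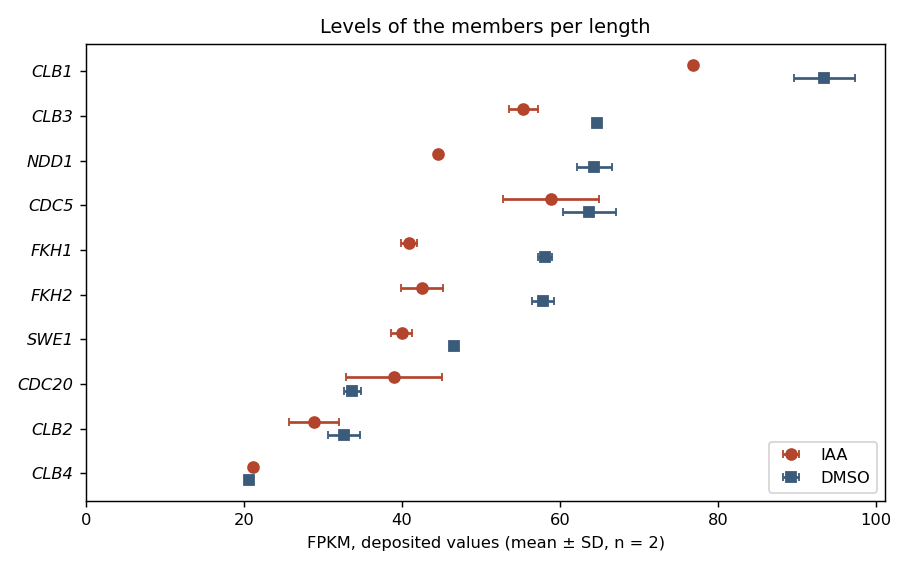
Deposited FPKM of the 10 genes (mean ± SD of 2 libraries; IAA, circles; DMSO, squares), in the order of the DMSO means. CLB1 is highest and CLB4 lowest in both groups, and NDD1 stands at 44.6 in IAA, against 64.4 in DMSO.

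Of 17 tested genes next to the 10, 6 were called higher and 4 lower in IAA, 58.8% in all, against 58.3% of all tested genes. Of these 10 calls, 6 had the same sign of log2 fold change as the gene of the 10 beside them and 4 the opposite sign. The sign of CDC5 was reversed under 4 of the 16 alternatives and that of CLB2 under 1. The split therefore leans in part on signs that were not stable. CLB2 and CLB1 each face an S-phase cyclin gene tail to tail, CLB5 746 bp and CLB6 307 bp away. CLB5 fell, as given above, while CLB2 was not called, and CLB6 was at 2.52 ± 0.389 CPM in IAA and 3.17 ± 0.333 CPM in DMSO (n = 2 each; edgeR adjusted p = 0.152). NDD1 shares its upstream region with NUD1, a spindle pole scaffold gene 362 bp away on the other strand, which was at 55.1 ± 1.19 CPM in IAA and 58.2 ± 2.02 CPM in DMSO (n = 2 each; edgeR adjusted p = 0.235). ARO5, which ends 499 bp before CDC20 on the same strand, was higher, at 21.7 ± 4.31 CPM in IAA and 15.5 ± 1.04 CPM in DMSO (n = 2 each; edgeR adjusted p = 0.0123). SNF4, the activating subunit of the kinase Snf1, which starts 391 bp beyond CDC20 on the same strand, was also higher (log2 fold change 0.13, edgeR adjusted p = 0.0448). Whether reads run on between these genes was not tested. Next to FKH1, CSM2, 279 bp beyond its end on the same strand, fell (log2 fold change -0.31, SE 0.11, edgeR adjusted p = 0.0397). ASG1, upstream of FKH1 on the other strand, had a log2 fold change of -0.11 (edgeR adjusted p = 0.261). The 4 with the opposite sign, named after their values were seen, include GPB1, an inhibitor of protein kinase A signalling 624 bp beyond NDD1, which rose (log2 fold change 0.20, edgeR adjusted p = 0.00693). The others were MSH5 beside CLB3 (0.23), ATG38 beside CLB4 (-0.37) and YPT7 beside CDC5 (0.32), as log2 fold changes (edgeR adjusted p = 0.0343, 0.00701 and 0.00286); CLB3, CLB4 and CDC5 were themselves not called.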

How the data were processed

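The authors deposited RSEM estimated counts per gene and, in a second table, FPKM values scaled by library total and gene length. Per the submitters' processing notes, the tools were STAR 2.7.10a and RSEM 1.3.3 along with FastQC 0.11.9, SAMtools 1.10, DESeq2 and Trimmomatic, on build R64, listed without their roles. The kit kept strand, per the labels' protocols; whether counting used it and how RNA was selected are not given in the sources used here. Names and positions came from RefSeq R64, in which 6456 of 6459 rows matched; in the FPKM values, 6456 rows were used.

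Estimated counts were rounded. In R 4.3.3, edgeR 4.0.16 (filterByExpr, TMM factors of 0.960 and 0.969 in IAA and 1.04 in both DMSO libraries, estimateDisp, glmQLFit, glmQLFTest) compared IAA with DMSO over 5799 genes, with Benjamini-Hochberg adjustment. A standard error is the log2 fold change over the square root of F. The submitters call the cultures biological replicates. Counts were simulated for this comparison over 5795 genes, with 50 genes above 10 CPM changed at each fold. Recovered were 62% of those changed 1.2-fold, 96% of those changed 1.3-fold and 100% of those changed 1.5-fold or 2-fold, with 11 false calls. Far fewer genes were changed than the 58.3% called in the data, and counts were drawn with the spread fitted to these data. The shares recovered therefore describe that setting only. Alternatives were other scalings and filters, rDNA and transposon rows left out, DESeq2 1.42.0, limma 3.58.1 with voom or on log2(FPKM + 1) and log2(FPKM + 0.1), a threshold of 0.01, a replicate block and each library left out. The replicate libraries were all kept, as separate libraries. Counts within a group differed beyond sampling noise (19.0 in IAA and 6.20 in DMSO, as chi-square over its degrees of freedom). The 10 genes and the lists were chosen with earlier results of these data known. The genes named are the 10, up to 4 in each list with the lowest adjusted p, direct neighbours and the 5 nearest to CLB2 in profile; SWI5, DBF2, RAX2, CDC28, MIH1, CDC15, CDH1 and 4 neighbours were named after their values were seen. One gene list and 1 of those 5 genes are not reported here.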

Additional observations from a re-analysis of the deposited data

How the results depend on the processing

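NDD1, FKH1, FKH2 and MCM1 kept direction and call under all 16 alternatives. With library size scaling the median log2 fold change of all genes shifted by -0.10, and calls higher in IAA were 31.1% of all calls, against 49.3% with TMM, 63.8% with upper quartile scaling, 34.4% on log2(FPKM + 1) and 34.3% on log2(FPKM + 0.1). With library size scaling, 0 of the 10 genes, 0 genes controlling Swe1 and 0 of anaphase and mitotic exit were called higher by edgeR, and the counts were also 0, 0 and 0 with limma on either FPKM scale (CLB2 cluster: 1 higher on log2(FPKM + 0.1)) and with a threshold of 0.01 (CLB2 cluster: 7 lower). With upper quartile scaling 3 of the 10 genes were called lower and 2 higher, 6 CLB2 cluster genes and 1 partner were called higher, and CDC5 had a log2 fold change of 0.060. Genes controlling Swe1 called higher were 1 with no filter and 1 with DESeq2, which also called 1 anaphase gene higher. With a mean of at least 10 CPM, 5 CLB2 cluster genes were called higher and CDC5 was at 0.0031. The cause of these moves was not tested.

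Leaving out a library, with the lone library taken to vary like the other group, gave 3 to 6 of the 10 genes lower and 0 to 1 higher, 2 to 7 CLB2 cluster genes higher, 0 to 1 partners higher, 0 to 2 genes controlling Swe1 higher and 0 to 2 anaphase genes higher. CLB2 then ran from -0.22 to 0.037 and CDC5 from -0.14 to 0.10 on the log2 scale.

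The groups share replicate numbers, which no label says pair the cultures. Same-numbered libraries deviated together (r = 0.239), and HIS3, the receptor's integration site, was at 989 CPM in IAA and 777 CPM in DMSO replicate 1, and at 444 CPM in IAA and 362 CPM in DMSO replicate 2. With the replicate block 5 CLB2 cluster genes and 1 partner were called higher, CLB3 passed (adjusted p = 0.0298), and the other 9 of the 10 genes kept their side of the threshold.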
